A study of Homo sapiens with 17 samples.

Results

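The ATAC-seq libraries of HepG2 cells given 10 µM 5-azacytidine were compared with those of untreated cells (0 µM) at every peak of the deposited count matrix. The members are 5 of the 17 libraries of the series, replicates 1 and 2 at 10 µM and replicates 1 to 3 at 0 µM, and 58372 peaks of 501 bp, each with the deposited annotation and gene symbol. HepG2 is a line from a human liver carcinoma; the labels give its tissue as liver, its cell type as hepatocyte and its genotype as WT. Both groups were kept for 4 days in DMEM with serum, and the medium was replaced each day. The remaining libraries are 3 of ATAC-seq at 2 µM, which served to estimate the spread, and 9 of RNA-seq, of which the 6 at 0 and 10 µM were set beside the peaks. The labels do not say whether replicates are separate cultures, so each p-value measures only the spread between these libraries.

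5-Azacytidine is a cytidine analogue that is built into RNA and DNA, where it traps DNA methyltransferases, so that methylation is lost as cells divide. ATAC-seq counts the cuts of a transposase that enters DNA where nucleosomes and other proteins leave it accessible, at active promoters and enhancers above all. Liver cells keep their enhancers open with factors such as HNF4A and the FOXA proteins, while AP-1, a dimer of JUN and FOS proteins that binds TGACTCA, is induced by growth signals and stress.

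Reads counted in peaks ran from 4054573 to 7333355 at 0 µM and were 7864321 and 4699599 at 10 µM. Across peaks the 0 µM libraries correlated with r between 0.953 and 0.969, the 10 µM pair with 0.942, and libraries of different groups with 0.291 to 0.356. Levels are given in CPM, the reads of a peak scaled to the total in all peaks of its library times edgeR's TMM scaling factor. These factors were 1.003 to 1.017 at 0 µM and 0.948 and 0.978 at 10 µM. A peak "rose" or "fell" if edgeR's quasi-likelihood test gave an adjusted p under 0.05 over all 58372 peaks. Changes are log2 ratios of 10 to 0 µM with the SE of the fit. In bulk material, fewer cells with an open site and a less open site in each cell cannot be told apart.

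The promoter sequences that carry the clearest pattern are those of CPA4, HRH1 and MRTFB, which were among the AP-1-bearing windows that opened most, and those of LEAP2, AHSG and C8B, among the windows with a liver factor's motif that closed most. BCL2A1, named in the title of the series, is shown beside them. Each is the stretch of 250 bases before the annotated start, from RefSeq on GRCh38.p14, written 5′ to 3′ on the gene's strand. Capitals mark an exact match on either strand to AP-1 (TGACTCA or TGAGTCA) in the first 3, to HNF4 (CAAAGTCCA or TGGACTTTG) in LEAP2 and AHSG, and to FOXA (TGTTTAC or GTAAACA) in C8B. BCL2A1 has no capitals, which says only that these letters are not in this window.
CPA4, chr7:130292911-130293160, plus strand: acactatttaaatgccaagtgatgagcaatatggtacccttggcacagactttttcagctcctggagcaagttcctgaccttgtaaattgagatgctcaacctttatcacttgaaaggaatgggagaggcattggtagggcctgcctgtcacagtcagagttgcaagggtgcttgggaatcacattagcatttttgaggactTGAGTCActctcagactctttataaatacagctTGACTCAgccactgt
HRH1, chr3:11136988-11137237, plus strand: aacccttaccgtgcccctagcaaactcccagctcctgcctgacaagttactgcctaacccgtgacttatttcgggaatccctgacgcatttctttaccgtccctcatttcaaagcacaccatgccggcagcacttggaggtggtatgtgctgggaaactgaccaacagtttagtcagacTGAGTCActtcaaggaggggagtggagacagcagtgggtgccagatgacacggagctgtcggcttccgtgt
MRTFB, chr16:14186436-14186685, plus strand: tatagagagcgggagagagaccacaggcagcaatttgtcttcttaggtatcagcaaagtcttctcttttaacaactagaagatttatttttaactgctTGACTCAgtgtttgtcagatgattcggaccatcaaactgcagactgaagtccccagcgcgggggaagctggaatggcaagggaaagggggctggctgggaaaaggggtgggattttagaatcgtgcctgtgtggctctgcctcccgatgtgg
LEAP2, chr5:132873418-132873667, plus strand: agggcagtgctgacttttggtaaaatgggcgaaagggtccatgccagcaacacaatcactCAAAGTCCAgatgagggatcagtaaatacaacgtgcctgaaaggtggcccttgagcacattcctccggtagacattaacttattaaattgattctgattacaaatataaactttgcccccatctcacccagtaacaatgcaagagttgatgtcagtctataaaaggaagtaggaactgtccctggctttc
AHSG, chr3:186612810-186613059, plus strand: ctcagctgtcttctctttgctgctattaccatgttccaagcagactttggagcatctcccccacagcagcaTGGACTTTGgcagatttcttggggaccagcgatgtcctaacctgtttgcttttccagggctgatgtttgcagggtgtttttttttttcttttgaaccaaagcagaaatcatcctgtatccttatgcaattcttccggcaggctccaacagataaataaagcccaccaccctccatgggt
C8B, chr1:56966016-56966265, minus strand: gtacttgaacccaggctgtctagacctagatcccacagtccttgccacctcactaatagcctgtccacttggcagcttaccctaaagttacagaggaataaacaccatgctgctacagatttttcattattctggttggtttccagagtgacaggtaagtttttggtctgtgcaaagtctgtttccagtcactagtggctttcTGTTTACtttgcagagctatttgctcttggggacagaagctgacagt
BCL2A1, chr15:79971197-79971446, minus strand: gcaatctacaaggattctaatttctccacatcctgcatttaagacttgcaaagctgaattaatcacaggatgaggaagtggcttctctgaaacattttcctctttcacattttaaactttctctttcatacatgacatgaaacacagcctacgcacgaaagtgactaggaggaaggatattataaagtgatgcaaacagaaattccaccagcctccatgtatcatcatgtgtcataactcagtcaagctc

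The peak over the CPA4 promoter held 2.43, 1.50 and 1.70 CPM at 0 µM and 27.4 and 25.0 CPM at 10 µM. CPA4 encodes a carboxypeptidase, and its 2 AP-1 motifs begin 48 and 15 bases before the start. The rise of 3.85 on the log2 scale passed the test (SE 0.26, adjusted p = 1.3e-14), and both 10 µM libraries lay far above all 3 at 0 µM. The HRH1 peak, at a promoter of the histamine H1 receptor, held 2.91, 4.76 and 4.73 CPM against 54.6 and 57.4 CPM (log2 3.71, SE 0.19, adjusted p = 3.6e-17). The LEAP2 peak, at the gene of a liver-secreted peptide, moved the other way, from 27.6, 29.1 and 26.3 CPM to 2.55 and 2.83 CPM (log2 -3.37, SE 0.23, adjusted p = 2.6e-14). These windows were picked for the size of their change, so the values describe them and are no test of the motifs.

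Of the peaks on the deposited list 17429 rose (29.9%) and 16134 fell (27.6%) at 10 µM. At least 2-fold rises numbered 10842 (18.6%) and at least 2-fold falls 9881 (16.9%), with a median log2 change of 0.05 over all peaks. Scaling to library size alone gave 16018 rises and 17459 falls, and scaling to promoter peaks moved the median by -0.09, so directions of changes smaller than that depend on the scaling. With the loess fit (a trend of the log2 ratio on abundance removed) 7786 peaks rose and 10523 fell at least 2-fold, so that which direction was the larger depends on the processing. The balance also follows the peak list. Each peak carries a dose in its deposited name, without an explanation in the sources used here. Of 22732 peaks named for 10 µM 15928 rose and 16 fell, of 18835 named for 0 µM 98 rose and 11299 fell, and of 16805 named for 2 µM 1403 rose and 4819 fell. Where the name gives the dose at which a peak entered the list, the list itself sets much of this balance, so counts of rises and falls describe this list of peaks and not the genome.

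**Figure D1:**
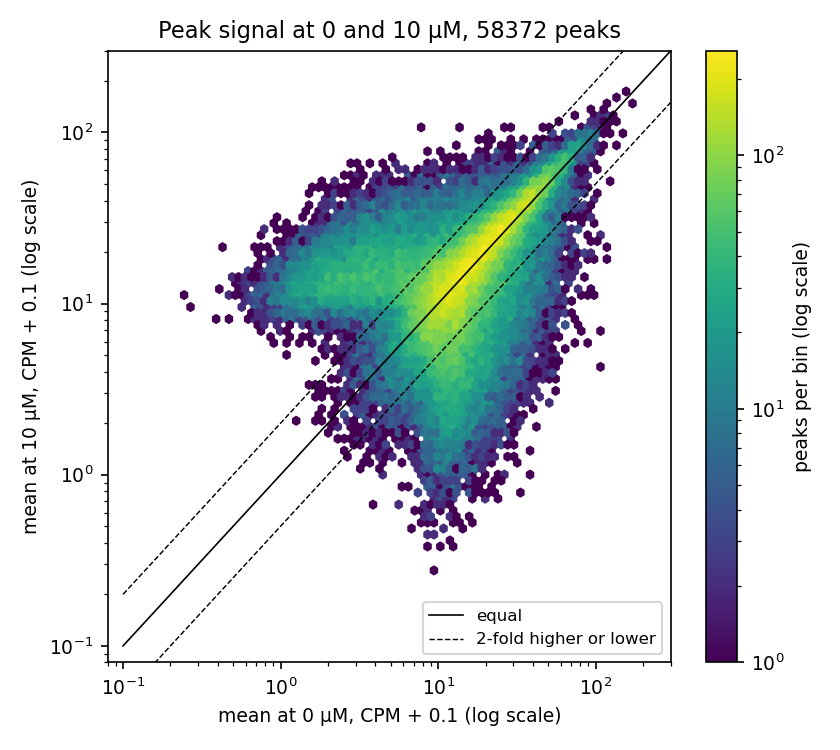
Mean ATAC signal of each of the 58372 peaks at 0 µM (x axis, 3 libraries) and 10 µM (y axis, 2 libraries), in CPM plus 0.1 on log axes; colour gives the number of peaks per bin, the solid line equality and the dashed lines 2-fold. Peaks spread on both sides of the line, with 10842 called at least 2-fold higher and 9881 at least 2-fold lower (7786 and 10523 with the loess fit), while the strongest peaks stay near it.

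The change lay mostly away from promoters. Of 19763 promoter peaks (1000 bp before to 100 bp after a start, in the authors' annotation), 20.5% rose and 14.9% fell, and 6.07% rose and 6.20% fell at least 2-fold. Of 11515 peaks in introns after the first, 37.7% rose and 37.7% fell, and 30.0% and 27.2% did so at least 2-fold. Intergenic peaks (10283) rose in 37.1% and fell in 34.2%. Their 3818 rises against 3516 falls turned to 3651 against 3729 by library size, 3554 against 3673 with promoter-based scaling and 3146 against 3485 with the loess fit, and later introns went from 4346 against 4342 to 3605 against 4491 with that fit. First introns turned likewise, from 3200 against 2919 to 2955 against 3001 with it. Peaks in 3′ UTRs fell more often than they rose, 40.0% against 22.7% of 2514, with a median log2 of -0.26. The excess of rises among promoters, 4061 against 2949, turned with the scaling, to 2934 against 3490 when the scaling rested on promoter peaks, and it was lost without 10 µM replicate 1 (2547 rises). The share of reads in promoter peaks was 44.8%, 46.6% and 45.4% at 0 µM and 47.6% and 43.8% at 10 µM, which overlap (difference 0.137 percentage points, two-sided exact permutation p = 1.0, where 0.1 is the smallest this design allows).

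The balance also moved with distance. Among 14761 peaks that cover a start site 18.9% rose and 12.3% fell, whereas of 12849 peaks 10001 to 50000 bp away 37.4% rose and 37.2% fell. Beyond 100000 bp, 57.2% of 1155 peaks rose and 28.7% fell, with a median log2 of 1.26 and median levels of 6.69 CPM at 0 µM and 12.4 CPM at 10 µM. Peaks 1001 to 10000 bp away leaned to falls, with 36.7% and 38.9% fallen in the bins split at 5000 bp. Low peaks depend most on how an abundance trend is handled: the loess fit shifted the 8655 peaks of 4 to 8 CPM by a median of -1.25 and ended 2403 of their 4892 rises.

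**Figure D2:**
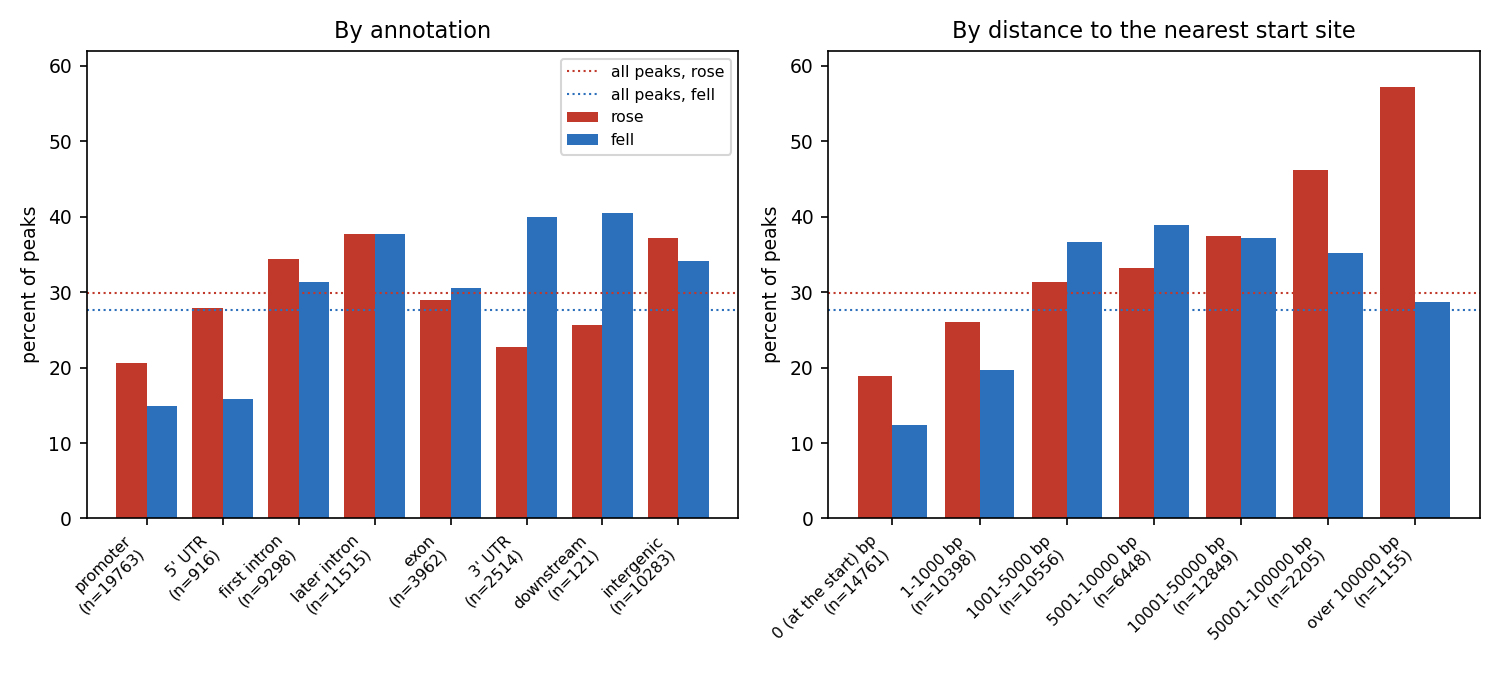
Percent of peaks that rose (red) or fell (blue) at 10 µM by annotation (left) and by distance to the nearest annotated start (right), with the number of peaks under each pair of bars; dotted lines give the shares over all peaks. Promoter peaks have the lowest share of falls on the left, and on the right rises reach 57.2% beyond 100000 bp.

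Some sites went from near nothing to open. In 93 peaks every 0 µM library was at or below 1 CPM and both 10 µM libraries were at or above 10 CPM; 30 of these were intergenic, 28 in first introns, 26 in later introns and 6 at promoters. The reverse held in 39 peaks, 13 of them intergenic and 1 at a promoter. An intronic peak of SPRR2E (chr1:153100200-153100700), a cornified envelope gene of squamous epithelium, held 0.243, 0.408 and 0.379 CPM at 0 µM and 26.3 and 16.7 CPM at 10 µM (log2 5.85, SE 0.37, adjusted p = 3.8e-15), while its RNA was listed at 0 in all 6 libraries. A first-intron peak of RSPO3 (chr6:127102236-127102736), a Wnt-enhancing secreted factor, rose from 1.21, 0.272 and 0.947 CPM to 32.2 and 25.7 CPM (log2 5.29, SE 0.33, adjusted p = 3.6e-15). Its RNA was listed at 0 in all libraries at 0 and 10 µM but 1, which held 0.0718 CPM. A peak assigned to KLF15 (chr3:126304655-126305155), which encodes a metabolic transcription factor, rose from 0.970, 0.408 and 0.758 to 28.7 and 23.9 CPM (log2 5.28, SE 0.30, adjusted p = 5.4e-16). KLF15 RNA fell by 2.62 on the log2 scale (adjusted p = 1.8e-05, edgeR), opposite to the peak labelled with its name.

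Among the largest promoter rises was that of LINC02831 (chr2:67561465-67561965), from 1.46, 1.50 and 1.14 CPM to 49.2 and 41.5 CPM (log2 5.03, SE 0.23, adjusted p = 1.2e-17), with RNA listed at 0 in every library. A promoter peak of SMAD3 (chr15:67127839-67128339), a transducer of TGF-beta signals, rose from 0.485, 1.09 and 2.27 CPM to 26.6 and 30.0 CPM (log2 4.40, SE 0.29, adjusted p = 1.5e-14). SMAD3 RNA went from 38.8, 29.6 and 70.9 CPM to 76.0, 83.8 and 80.4 CPM, a smaller rise (log2 0.79, adjusted p = 0.023). The promoter peak of MFSD1 (chr3:158808632-158809132), a lysosomal transporter, rose by 4.68 (SE 0.29, adjusted p = 1.8e-15) from 2.43, 0.952 and 0.568 CPM to 34.6 and 27.8 CPM.

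A strong promoter peak that closed was that of TTLL4 (chr2:218745796-218746296), which encodes a tubulin-modifying ligase. It held 115, 102 and 116 CPM at 0 µM and 4.16 and 3.91 CPM at 10 µM (log2 -4.76, SE 0.20, adjusted p = 1.7e-18), with 69.5 CPM as the mean at 2 µM. TTLL4 RNA was 88.5, 74.7 and 81.2 CPM against 57.1, 69.6 and 63.3 CPM and did not pass (log2 -0.36, adjusted p = 0.089). At FRY (chr13:32059577-32060077), whose product organises microtubules and cell shape, peak and RNA fell together: the peak from 20.9, 29.4 and 21.0 CPM to 1.07 and 0.217 CPM (log2 -4.98, SE 0.35, adjusted p = 5.2e-14), the RNA by 3.91 on the log2 scale (adjusted p = 8.9e-06). Away from promoters, a later-intron peak of FSD1L (chr9:105418446-105418946) fell from 36.4, 39.7 and 36.9 CPM to 0.671 and 1.09 CPM (log2 -5.46, SE 0.30, adjusted p = 1.9e-16), and its RNA did not pass (log2 0.31, adjusted p = 0.46). In all of the 15 largest rises and 15 largest falls at or above 5 CPM in the higher group, the 2 µM mean lay between the other means. These peaks were picked for the size of their change. Means at the low end were 0.144 to 1.46 CPM (rises, 0 µM) and 0.176 to 0.895 CPM (falls, 10 µM). Such a choice favours a 2 µM mean in between, so the count is no test of a dose order.

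**Figure D3:**
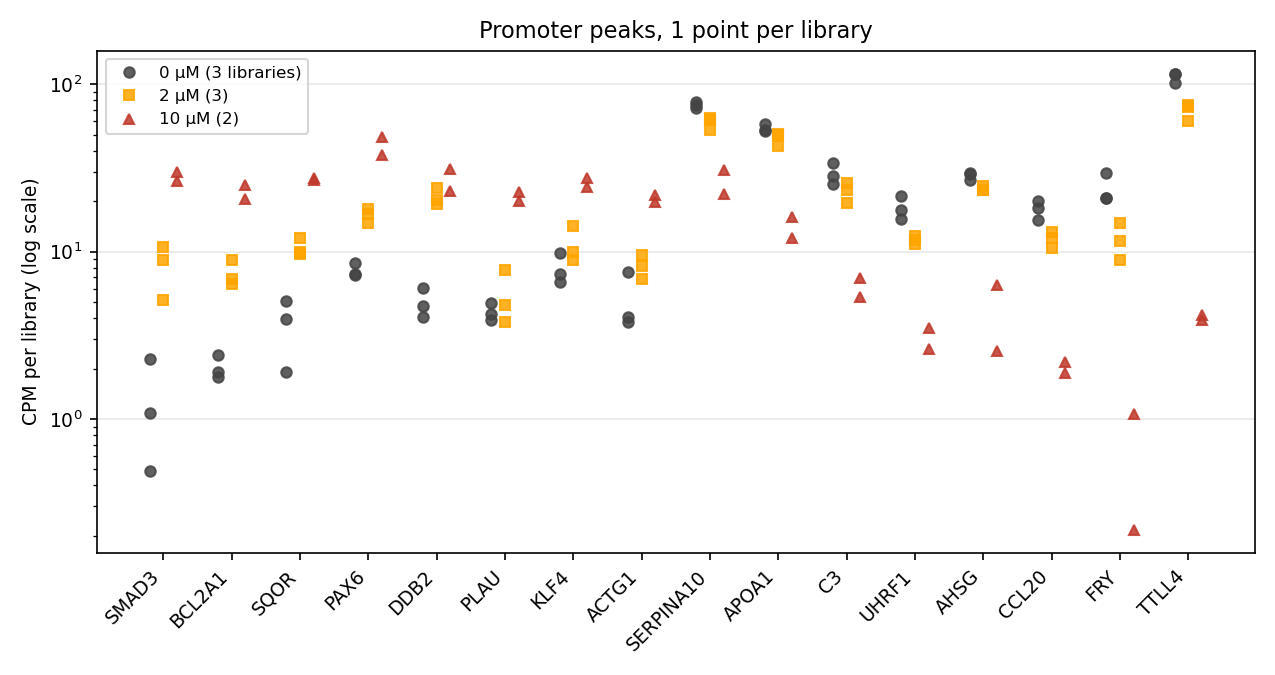
ATAC signal in CPM (log axis) at 16 promoter peaks named in the text, 1 point per library: black circles 0 µM, orange squares 2 µM, red triangles 10 µM. In the 8 peaks on the left both 10 µM points lie above all 0 µM points, and in the 8 on the right below them; TTLL4 drops from over 100 to about 4 CPM.

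Some of the strongest peaks of the matrix gave no call. The promoter peak of TP53I3 (chr2:24084178-24084678), an oxidoreductase induced by p53, held 156, 173 and 185 CPM at 0 µM and 144 and 162 CPM at 10 µM (log2 -0.16, SE 0.14, adjusted p = 0.33). The MXD1 promoter peak (chr2:69914393-69914893) held 133, 173 and 162 CPM against 167 and 179.6 CPM (log2 0.14, SE 0.14, adjusted p = 0.40), although MXD1 RNA, of a MYC antagonist, rose by a log2 of 1.78 (adjusted p = 0.00065).

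Around the genes of the title, the promoter peak and its neighbours did not move as a block. The SQOR promoter peak (chr15:45631261-45631761; the gene oxidises hydrogen sulfide in mitochondria) rose 7.46-fold, from 5.09, 1.90 and 3.98 CPM to 27.0 and 27.6 CPM. Of the 5 other peaks assigned to SQOR, all first intron or promoter, 3 rose and 2 did not pass. The largest change among them was a 4.62-fold higher mean at 10 µM. The most distal one (chr15:45648819-45649319) rose by 0.79 (SE 0.17, adjusted p = 0.00012), and the rise at chr15:45635245-45635745 (log2 0.42, adjusted p = 0.039) was lost in 14 of 21 alternatives. At BCL2A1, an anti-apoptotic BCL2 relative, the promoter peak went from 2.43, 1.77 and 1.89 CPM to 20.7 and 25.0 CPM. An intergenic peak upstream of it (chr15:79978955-79979455) fell, from 19.4, 17.0 and 19.3 CPM to 6.57 and 9.13 CPM (log2 -1.27, SE 0.20, adjusted p = 1.6e-06). A weak one on the other side (chr15:79948121-79948621) rose by 0.92 (edgeR adjusted p = 0.003), but turned to -0.59 with the loess fit. The remaining peak assigned to BCL2A1 had a 2.28-fold higher mean at 10 µM.

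Sites of genes for secreted liver proteins closed together. Of 179 peaks assigned to 34 of the 36 genes of that list, 136 fell (76.0%) and 11 rose (6.15%), with a median log2 of -1.38. Over all peaks 27.6% fell and 29.9% rose, with a median of 0.05. At promoters 37 of 49 fell (75.5%) and 2 rose (4.08%), against 14.9% and 20.5% of all promoter peaks (1 rose without 0 µM replicate 2 or 3 or 10 µM replicate 1). APOB, the scaffold of low-density lipoprotein, supplied 52 of the 179 peaks; without it 90 of 127 fell and 10 rose. The promoter peak of AHSG (chr3:186612588-186613088), the plasma glycoprotein fetuin-A, went from 29.6, 29.1 and 26.7 CPM to 2.55 and 6.31 CPM (log2 -2.80, SE 0.24, adjusted p = 2.4e-12). That of APOA1 (chr11:116837438-116837938), the main protein of high-density lipoprotein, went from 58.0, 53.3 and 52.5 CPM to 12.1 and 16.1 CPM (log2 -1.98, SE 0.17, adjusted p = 3.2e-12). Complement C3 (chr19:6720589-6721089) went from 28.1, 34.0 and 25.2 CPM to 5.37 and 6.96 CPM (log2 -2.28, SE 0.21, adjusted p = 1.5e-11). SERPINA1 (chr14:94388530-94389030), the gene of alpha-1-antitrypsin, closed less, from 64.0, 64.3 and 53.6 CPM to 31.3 and 32.2 CPM (log2 -0.94, SE 0.15, adjusted p = 1.2e-06).

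In RNA, all 34 tested genes of the list fell (median log2 -5.23), where over 18999 genes 4384 rose (23.1%) and 4762 fell (25.1%). Their summed RNA went from 48726 to 86198 CPM at 0 µM to 1940.1 to 3077 CPM at 10 µM, a larger drop than that of their summed peaks, from 3505 to 3773 CPM to 1688 to 1866 CPM. AHSG RNA fell from 3203, 1781 and 5079 CPM to 28.9, 83.6 and 56.9 CPM (log2 -5.89, adjusted p = 1.1e-05). The list was also read against the labelled cell type. Of its 36 genes only ITIH4 was listed at 0 in all 6 libraries, and 26 held at least 1 CPM in every 10 µM library. A count above 0 in any library is a weak check of cell type.

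The liver transcription factor genes changed less than the genes of secreted proteins. Of 127 peaks at 26 such genes 29 rose (22.8%) and 47 fell (37.0%), with a median log2 of -0.15, against 29.9% and 27.6% of all peaks. Of 35 promoter peaks 7 rose (20.0%) and 9 fell (25.7%), against 20.5% and 14.9% of all promoter peaks. Without 10 µM replicate 1 there were 4 promoter rises. The promoter peaks of HNF4A, a nuclear receptor at the top of the hepatocyte network, fell modestly: chr20:44355412-44355912 from 50.7, 49.9 and 48.9 CPM to 36.8 and 33.1 CPM (log2 -0.51, SE 0.14, adjusted p = 0.0027), and chr20:44400929-44401429 from 23.5, 21.2 and 25.0 CPM to 13.1 and 15.01 CPM (log2 -0.73, adjusted p = 0.00049). NR5A2 (chr1:200027226-200027726), a nuclear receptor of bile acid synthesis, fell from 12.6, 12.9 and 13.3 CPM to 4.02 and 4.57 CPM (log2 -1.60, SE 0.26, adjusted p = 2.0e-06). CREB3L3 (chr19:4153298-4153798), a membrane-bound factor of lipid metabolism, went from 31.0, 31.0 and 31.8 CPM to 14.6 and 15.4 CPM (log2 -1.06, adjusted p = 1.3e-06). The CEBPA promoter held 30.1, 45.7 and 33.7 CPM against 49.4 and 35.4 CPM, groups that overlap (log2 0.21, adjusted p = 0.30). Liver metabolic enzymes followed the secreted proteins, with 50 of 85 peaks fallen (58.8%) and 15 risen (17.6%). Of 18 promoter peaks of these enzymes 13 fell (72.2%) and 0 rose (edgeR, with 0 rises also at an unadjusted p under 0.05 and by DESeq2). Among them FAH (chr15:80171738-80172238), the last enzyme of tyrosine breakdown, went from 10.7, 14.3 and 10.4 CPM to 3.35 and 2.83 CPM (log2 -1.92, SE 0.27, adjusted p = 1.1e-07). CYP8B1 (chr3:42875614-42876114), of cholic acid synthesis, went from 9.94, 9.65 and 9.66 CPM to 1.61 and 3.48 CPM (log2 -2.03, adjusted p = 8.4e-07).

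Whole loci closed or opened around some genes. Of 874 genes with at least 10 assigned peaks, 20 had at least 80% of them fallen and 19 at least 80% risen; the genes named in this paragraph were chosen after their values were seen. At APOB (peaks between chr2:20955117 and 21068474) 46 of 52 peaks fell and 1 rose, with a median log2 of -2.92. At FGFR4, the receptor for the bile acid hormone FGF19, 14 of 15 fell (median -1.21), and its mean RNA went from 331 to 17.5 CPM (log2 -4.24, adjusted p = 1.8e-07, edgeR). At MLXIPL, the glucose-sensing factor ChREBP, 13 of 15 fell (median -2.28). On the other side, 21 of 23 peaks rose at NABP1, a single-strand DNA binding protein (median 2.07; mean RNA 50.4 to 474 CPM), and 18 of 20 at the neurotensin receptor NTSR1 (median 2.37; mean RNA 0.764 to 15.03 CPM). All 11 peaks of NEAT1, the RNA scaffold of paraspeckles, rose (median 1.21) with no call in its RNA (log2 -0.06, adjusted p = 0.94). At ITGB6, an epithelial integrin, 9 of 10 rose while its mean RNA was 0 and 0.0388 CPM.

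Peaks of AP-1 and immediate early genes opened. Of 125 peaks at 22 genes 67 rose (53.6%) and 17 fell (13.6%), with a median log2 of 0.59, against 29.9% and 27.6% of all peaks. Of 33 promoter peaks 19 rose (57.6%) and 1 fell (3.03%), against 20.5% and 14.9% of all promoter peaks. Without 0 µM replicate 2 or 10 µM replicate 2, 0 fell. KLF6 supplied 17 of the 125; without it 52 of 108 rose and 16 fell. The JUN promoter (chr1:58783766-58784266) went from 29.6, 32.6 and 30.7 CPM to 58.4 and 53.1 CPM (log2 0.85, SE 0.14, adjusted p = 2.8e-06), with RNA rising from 23.7, 43.2 and 72.8 CPM to 291, 285 and 331 CPM. The promoter of FOSL1 (chr11:65900315-65900815), a FOS partner of JUN, went from 25.5, 24.9 and 25.8 CPM to 47.0 and 36.3 CPM (log2 0.73, SE 0.15, adjusted p = 7.8e-05), and all 7 peaks assigned to it rose. KLF4 (chr9:107489745-107490245), a stress- and differentiation-linked factor, went from 6.55, 9.79 and 7.39 CPM to 27.6 and 24.4 CPM (log2 1.68, SE 0.20, adjusted p = 4.7e-09). In RNA 12 of 20 tested genes of the list rose and 0 fell (edgeR, with 1 fall at an unadjusted p under 0.05 and 0 by DESeq2). Over all tested genes 23.1% rose and 25.1% fell in RNA.

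The AP-1 motif itself was frequent in promoters that opened. RefSeq windows of 300 bases (250 before and 50 after a start) were set against the peaks, and 11823 of 35116 overlapped a peak by at least 150 bases. AP-1 was found in 115 of the 295 windows whose peak rose at least 2-fold, or 39.0% (Wilson 95% interval 33.6% to 44.7%, counting error only). It was in 5.26% of 1693 windows that rose less, 2.45% of 8802 with no call, 2.55% of 314 that fell at least 2-fold, and 4.95% of all windows. Read the other way, 45.1% of the 452 peak-covered windows with the motif rose against 15.7% of those without. Windows that changed at least 2-fold in either direction were poor in CpG, with a median of 6 against 28 in windows with no call. Among windows of at most 8 CpG the motif was in 55.8% of those that rose at least 2-fold, 12.3% of those with no call and 3.30% of those that fell at least 2-fold, a split chosen after seeing the data. Over the other alternatives the share of 39.0% ran from 35.0% to 44.0%.

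The HNF4 motif, of a liver factor, was rare and more frequent in windows that closed. It was in 13 of 314 windows that fell at least 2-fold (4.14%) against 0.273% of windows with no call. Of 52 peak-covered windows with it 42.3% fell and 11.5% rose. Among windows of at most 8 CpG, a split chosen after seeing the data, the contrast was smaller. There HNF4 was in 11 windows that fell at least 2-fold (5.19%), 6 with no call (1.71%) and 1.16% of those that rose at least 2-fold. FOXA was in 8.92% of windows that fell at least 2-fold, 5.76% of those that rose at least 2-fold and 2.16% of those with no call. Among windows of at most 8 CpG these shares were 10.4%, 7.56% and 5.14%. The 289 peak-covered windows with FOXA rose in 17.6% and fell in 16.6%. Windows without it rose in 16.8% and fell in 8.54%, so falls were more frequent with the motif. HNF1, another liver motif, was in 0 peak-covered windows and could not be described. CEBP, a further liver motif, was in 27 peak-covered windows, of which 4 rose and 1 fell. The motif of NRF1, a factor of housekeeping promoters that binds unmethylated CpG-rich sites, was in 272 peak-covered windows, of which 61 rose (22.4%) and 1 fell, against 16.7% risen and 8.93% fallen without it. By CpG content, windows with 0 to 3 CpG rose in 34.6% and fell in 44.5%, and windows with over 25 rose in 14.3% and fell in 5.06%. Genes can have several overlapping windows and several windows share a peak, so these shares are descriptions.

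**Figure D4:**
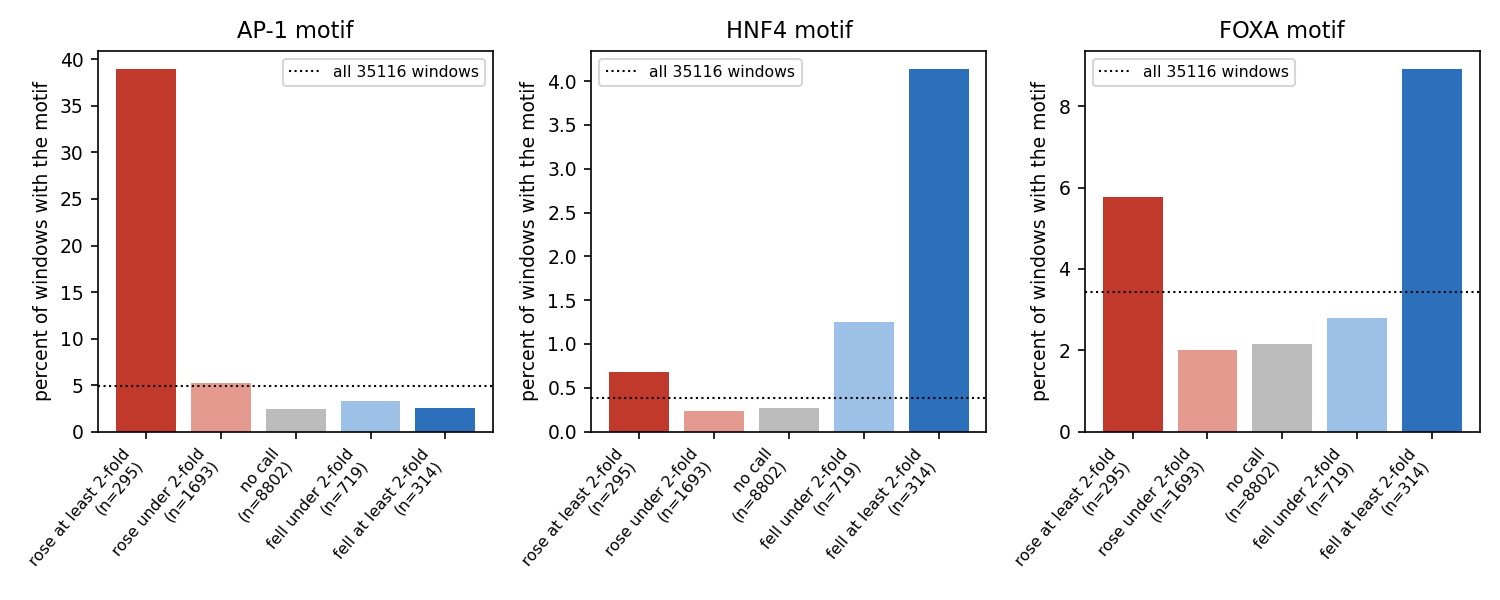
Percent of RefSeq promoter windows (300 bases) with an AP-1, HNF4 or FOXA motif, by the call of the overlapping peak at 10 µM; n is the number of windows, dotted lines give the share over all 35116 windows, and the 3 panels have different y axes. AP-1 stands at 39.0% in windows that rose at least 2-fold and below 6% in the other groups; HNF4 and FOXA are highest, at 4.14% and 8.92%, in windows that fell at least 2-fold.

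Cytoskeleton and matrix genes showed openings at the promoter. Of 66 promoter peaks of actin and SRF/YAP target genes 23 rose and 3 fell, against 20.5% and 14.9% of all promoter peaks. The promoter falls numbered 7 without 10 µM replicate 1. Over their 217 peaks 69 rose (31.8%) and 55 fell (25.3%), near the 29.9% and 27.6% over all peaks. A promoter peak of ACTG1 (chr17:81511907-81512407), cytoplasmic gamma-actin, went from 7.52, 4.08 and 3.79 CPM to 21.7 and 19.8 CPM (log2 2.08, SE 0.23, adjusted p = 1.2e-09), and its RNA from 2022, 2237 and 1904 CPM to 7036, 5449.8 and 5515 CPM. TPM4 (chr19:16078760-16079260), a tropomyosin, went from 6.55, 6.80 and 6.82 CPM to 22.3 and 19.8 CPM (log2 1.65, SE 0.20, adjusted p = 5.9e-09). Of 21 promoter peaks of matrix genes and matrix proteases 9 rose and 3 fell (5 fell without 10 µM replicate 2). PLAU (chr10:73908920-73909420), the urokinase that activates plasmin, went from 3.88, 4.21 and 4.92 CPM to 20.0 and 22.8 CPM (log2 2.28, SE 0.23, adjusted p = 2.0e-10), with RNA up by 1.96 (adjusted p = 0.00073). For fibronectin, a single promoter peak went opposite to the RNA. Over all 101 peaks of the matrix list 40 rose and 30 fell. Without the 17 of FN1, 35 of 84 rose and 22 fell, so FN1 peaks fell more often than they rose. A promoter peak of FN1 (chr2:215409703-215410203) rose from 11.2, 5.03 and 11.7 CPM to 32.2 and 41.5 CPM (log2 2.03, SE 0.23, adjusted p = 1.4e-08), while its RNA fell from 7695, 4169 and 16449 CPM to 1905, 1388 and 1672 CPM (log2 -2.51, adjusted p = 0.00053).

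Inflammatory and interferon genes were mixed. Genes of NF-kappaB signalling and inflammation had 28 promoter peaks, of which 7 opened (25.0%) and 4 closed (14.3%), near the shares of 20.5% and 14.9% over all promoter peaks. CCL20 (chr2:227813132-227813632), a chemokine, closed from 18.2, 20.0 and 15.3 CPM to 1.88 and 2.17 CPM (log2 -3.15, SE 0.27, adjusted p = 4.1e-12), and its RNA fell by 4.93 on the log2 scale (adjusted p = 0.00016). TRAF1 (chr9:120914905-120915405), an adaptor of TNF receptors, opened from 1.70, 0.952 and 1.33 CPM to 11.4 and 12.6 CPM (log2 3.22, SE 0.33, adjusted p = 2.4e-10), a call that the loess fit ended (log2 0.42). Of 74 peaks of interferon-stimulated genes 25 fell (33.8%) and 10 rose (13.5%), against 27.6% and 29.9% of all peaks (median log2 -0.17). IFI35 (chr17:43010746-43011246) went from 31.8, 42.7 and 35.4 CPM to 14.0 and 15.7 CPM (log2 -1.33, SE 0.17, adjusted p = 2.3e-08). OAS1 (chr12:112906673-112907173), a sensor of double-stranded RNA, went from 16.2, 13.7 and 14.96 CPM to 4.70 and 7.61 CPM (log2 -1.33, adjusted p = 1.8e-05), while its RNA did not pass (log2 0.06, adjusted p = 0.84). Of 66 cancer-testis and germline genes, whose promoters are often held shut by DNA methylation, only 19 had any peak in the set and 10 a promoter peak. Their 16 promoter peaks held 4 rises and 5 falls. Their RNA held 16 rises and 1 fall among 26 tested genes, against 23.1% and 25.1% of all tested genes. MEI1 (chr22:41752491-41752991), a meiosis gene, rose from 4.85, 3.94 and 3.22 CPM to 10.7 and 15.01 CPM (log2 1.67, SE 0.27, adjusted p = 1.5e-06), and MOV10L1 (chr22:50146753-50147253), a piRNA helicase, fell from 29.6, 24.9 and 25.0 CPM to 11.7 and 14.1 CPM (log2 -1.05, adjusted p = 3.4e-06).

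Genes of division lost RNA, and the shares of their promoter peaks called in either direction were no larger than over all promoter peaks. Over all tested genes 25.1% fell in RNA. All 34 tested mitosis genes fell in RNA (median log2 -3.70), yet of 42 promoter peaks 8 rose (19.05%) and 4 fell (9.52%), against 20.5% and 14.9% of all promoter peaks, and the list's summed peaks were 1407 to 1489 CPM at 0 µM and 1375 to 1486 CPM at 10 µM. The 8 rises fell to 3 without 0 µM replicate 1, 4 without 0 µM replicate 3 and 5 without 10 µM replicate 2, and the 4 falls to 2 without 10 µM replicate 2. CENPA (chr2:26785645-26786145), the centromere histone, held 62.1, 74.9 and 73.7 CPM at 0 µM and 90.3 and 89.8 CPM at 10 µM (log2 0.35, SE 0.14, adjusted p = 0.025, lost in 12 of 21 alternatives). CENPA RNA fell from 56.1, 49.9 and 37.2 CPM to 1.03, 1.86 and 1.76 CPM (log2 -4.93, adjusted p = 7.2e-08). The securin gene PTTG1 (chr5:160421849-160422349) also went opposite ways, with the peak at 19.2, 20.9 and 16.1 CPM against 30.7 and 35.9 CPM (log2 0.81, SE 0.16, adjusted p = 6.0e-05) and RNA at 138, 105 and 93.2 CPM against 18.8, 18.0 and 21.4 CPM. ANLN (chr7:36388837-36389337), of the cleavage furrow, fell in both, its peak from 29.3, 33.4 and 27.8 CPM to 11.4 and 8.05 CPM (log2 -1.60, SE 0.18, adjusted p = 2.0e-09). Of 39 S phase genes 35 fell in RNA (median log2 -2.11), and of their 47 promoter peaks 5 rose (10.6%) and 7 fell (14.9%); the rises numbered 1 or 2 without any one of 0 µM replicates 1 to 3 or 10 µM replicate 1.

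Cytosolic ribosomal protein genes went opposite ways as a list. Of 76 promoter peaks 29 rose and 0 fell (edgeR; 0 also at an unadjusted p under 0.05, by DESeq2 and under the other scalings and left-out libraries), with a median log2 of 0.32 that stayed between 0.19 and 0.38 under these alternatives. The 29 rises ran from 15 to 36 and were 17 without 10 µM replicate 1. In RNA 68 of 78 fell and 0 rose (edgeR, median log2 -0.89), with 0 rises also at an unadjusted p under 0.05 and by DESeq2. Over all tested genes 23.1% rose and 25.1% fell in RNA. RPS2 (chr16:1964721-1965221), of the small subunit, rose from 20.9, 18.4 and 20.6 CPM to 37.8 and 30.9 CPM (log2 0.80, SE 0.16, adjusted p = 4.9e-05), and its RNA fell from 1588, 1365 and 1426 CPM to 599.7, 539.9 and 685 CPM. Among proteasome genes 8 of 39 promoter peaks rose, the same 20.5% as over all promoter peaks, and 1 fell, with 3 rises without 10 µM replicate 1 and 5 without 0 µM replicate 3. PSMD2 (chr3:184300281-184300781), of the proteasome's regulatory particle, rose from 6.79, 4.08 and 5.87 CPM to 26.3 and 33.9 CPM (log2 2.46, SE 0.21, adjusted p = 4.2e-12), with RNA up by 1.88 (adjusted p = 2.8e-05).

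Of 42 promoter peaks of p53 targets 10 rose, 23.8% against 20.5% of all promoter peaks, and 2 fell (4.76% against 14.9%; 0 without 10 µM replicate 2, 1 without 0 µM replicate 2 or 3). DDB2 (chr11:47234191-47234691), a sensor of DNA damage, rose from 6.06, 4.08 and 4.73 CPM to 22.9 and 31.1 CPM (log2 2.46, SE 0.21, adjusted p = 3.2e-12), while its RNA fell from 65.5, 46.4 and 55.7 CPM to 22.8, 25.0 and 23.2 CPM (log2 -1.24, adjusted p = 0.00012). PLK2 (chr5:58458716-58459216), a stress-induced kinase, rose in both, its peak from 3.88, 2.31 and 2.65 CPM to 19.2 and 18.5 CPM (log2 2.73, SE 0.25, adjusted p = 9.9e-12) and its RNA by 2.70 (adjusted p = 3.9e-06). Of 9 promoter peaks of cell cycle inhibitors 4 rose and 1 fell, the rises including CDKN2B (chr9:22009079-22009579), from 14.8, 15.5 and 15.2 CPM to 33.7 and 23.5 CPM (log2 0.93, SE 0.18, adjusted p = 2.3e-05).

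Among the genes of DNA methylation, 9 of 30 promoter peaks rose (30.0%) and 5 fell (16.7%), against 20.5% and 14.9% of all promoter peaks, with a median log2 of -0.01; the rises numbered 3 without 10 µM replicate 1 and 5 without either 0 µM replicate 2 or 3. DNMT1, the maintenance methyltransferase that 5-azacytidine traps, held 22.6, 22.8 and 21.2 CPM against 29.6 and 18.5 CPM at its promoter peak (chr19:10194814-10195314), groups that overlap (log2 0.15, adjusted p = 0.52). UHRF1 (chr19:4908683-4909183), which guides DNMT1 to replicated DNA, fell from 21.6, 17.8 and 15.7 CPM to 3.49 and 2.61 CPM (log2 -2.53, SE 0.25, adjusted p = 7.8e-11), and its RNA by 2.75 on the log2 scale (adjusted p = 0.00032). MBD1 (chr18:50277883-50278383), a reader of methylated CpG, rose from 0.485, 0.816 and 1.89 CPM to 14.4 and 16.3 CPM (log2 3.80, SE 0.32, adjusted p = 2.7e-12), with RNA up from 54.9, 48.3 and 44.2 CPM to 151, 149 and 157 CPM. DNMT3A, a de novo methyltransferase, rose at one of its promoter peaks (chr2:25250246-25250746) from 7.28, 5.57 and 4.36 CPM to 16.4 and 16.3 CPM (log2 1.53, SE 0.22, adjusted p = 1.7e-07) as its RNA fell by 0.52 on the log2 scale (adjusted p = 0.036). PAX6 (chr11:31811119-31811619), an eye and brain factor on the list of developmental regulators, rose from 8.49, 7.21 and 7.39 CPM to 48.2 and 37.8 CPM (log2 2.51, SE 0.18, adjusted p = 3.7e-14). Its RNA rose by 3.64 (edgeR adjusted p = 0.00011). The list as a whole had 28 of 80 peaks risen (35.0%) and 22 fallen (27.5%), near the 29.9% and 27.6% over all peaks.

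In the BCL2 family 10 of 34 promoter peaks rose (29.4% against 20.5% of all promoter peaks) and 1 fell (2.94% against 14.9%). Without 0 µM replicate 1 there were 5 rises and 2 falls, and without 10 µM replicate 1 3 falls. A promoter peak of BCL2 itself (chr18:63161693-63162193) rose from 1.21, 2.86 and 1.89 CPM to 20.1 and 17.4 CPM (log2 3.14, SE 0.27, adjusted p = 3.2e-12), with no call in RNA (log2 0.03, adjusted p = 0.95). The proapoptotic BMF (chr15:40106468-40106968) fell from 22.6, 23.4 and 20.6 CPM to 10.2 and 12.0 CPM (log2 -1.02, SE 0.18, adjusted p = 1.0e-05). Among sulfide and sulfur amino acid genes 8 of 30 promoter peaks rose (26.7%) and 2 fell (4 rises without 10 µM replicate 1, 5 without 0 µM replicate 1 or 3). Over all 77 of their peaks 22 rose and 22 fell (28.6% each), near the 29.9% and 27.6% over all peaks. AHCY (chr20:34311339-34311839), which clears S-adenosylhomocysteine, fell from 51.9, 54.1 and 44.5 CPM to 16.9 and 19.4 CPM (log2 -1.48, SE 0.16, adjusted p = 6.8e-10). Cholesterol synthesis genes fell in RNA (19 of 22 against 25.1% of all tested genes, median log2 -2.28). Of their 38 promoter peaks 4 rose and 4 fell, 10.5% each (2 rises without any one of the 5 libraries at 0 and 10 µM).

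**Figure D5:**
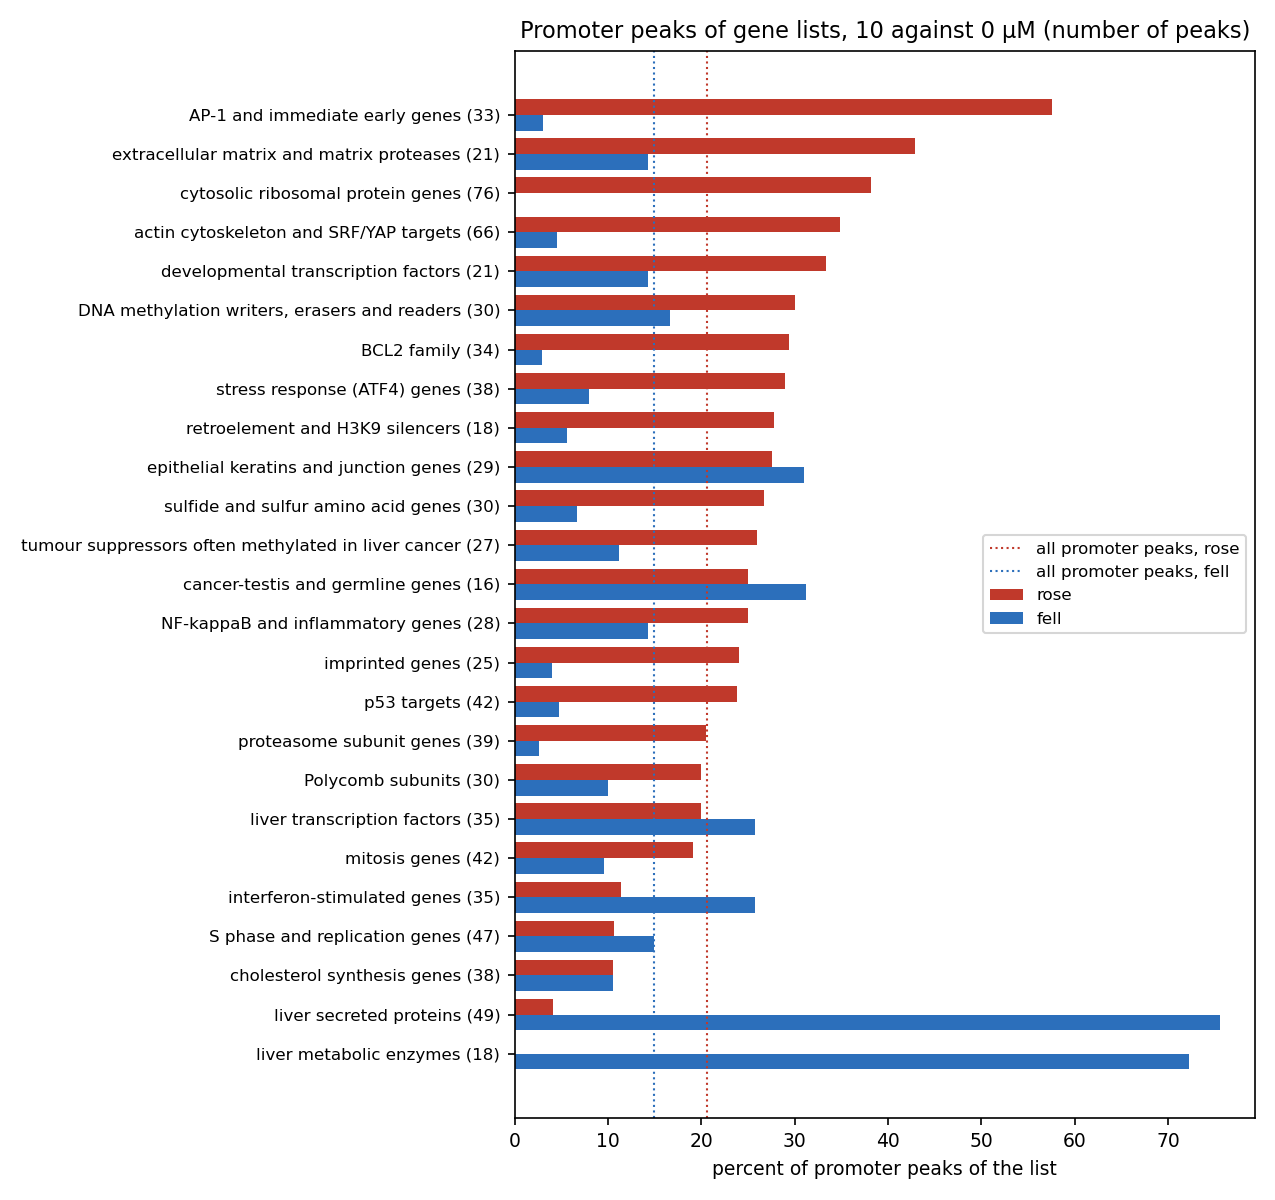
Percent of promoter peaks that rose (red) or fell (blue) at 10 µM for each list with at least 15 promoter peaks, whose number stands in brackets; dotted lines give the shares over all promoter peaks (20.5% rose, 14.9% fell). AP-1 genes have the highest share of rises, secreted liver proteins and liver enzymes the highest shares of falls, and ribosomal protein genes have no bar for falls.

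Markers of other cell types gave no common direction. Over all peaks 29.9% rose and 27.6% fell. Shares were near these for leukocyte markers (31.03% and 34.48%) and cholangiocyte markers (32.43% and 35.14%). Endothelial markers rose in 40.54% and fell in 27.03% of peaks. Neuronal markers departed from the shares over all peaks, with 62.5% risen and 6.25% fallen. The 10 peaks of fibroblast and stellate cell markers leaned to falls. Leukocyte markers had 9 of 29 peaks risen and 10 fallen, with PTPRC, MS4A1 and SPI1 listed at 0 in RNA; their summed RNA, 2347 to 3475 CPM at 0 µM and 103 to 133 CPM at 10 µM, was mostly LYZ. Fibroblast and stellate cell markers had 1 of 10 peaks risen (2 without 10 µM replicate 2) and 5 fallen, 4 of these 5 at PDGFRB, with FAP and TWIST1 listed at 0. Endothelial markers had 15 of 37 risen and 10 fallen, with CLEC4G, EMCN and STAB2 listed at 0. Their summed RNA was 22.6 to 43.6 CPM at 0 µM and 277 to 390 CPM at 10 µM. Only 1 of their 6 tested genes rose in RNA and 2 fell (median log2 -0.70), so the higher sum is not shared by the list. Cholangiocyte markers had 12 of 37 risen and 13 fallen, with CFTR listed at 0. Neuronal markers had 20 of 32 peaks risen and 2 fallen (median log2 0.58; 13 and 2 of 22 without TUBB3), their summed peaks at 424 to 463 CPM and 760 to 775 CPM, while their summed RNA was 17.0 to 30.3 CPM and 16.8 to 18.6 CPM, with DCX, ELAVL4, NEFL, NEFM, SNAP25 and STMN2 listed at 0. The part of these lists in the results above was not tested.

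Promoter peaks and RNA of the same gene were compared in 10947 genes with both, taking the peak nearest to the start. Where the peak rose (1916 genes), RNA rose in 39.6% and fell in 16.3%, and where it fell (1138 genes), RNA fell in 60.6% and rose in 9.75%. With no call at the peak (7893 genes), RNA rose in 25.0% and fell in 27.7%. The median RNA log2 change was 0.39, -1.44 and -0.01 in these 3 groups, and across genes, which are not independent, Pearson's r was 0.402 and Spearman's rho 0.283. Genes with no call at the peak held 1971 RNA rises and 2187 RNA falls. That is the larger part of the RNA changes in these 10947 genes, but they were also the larger part of the genes (7893). Among genes above 10 CPM of control RNA, a risen peak went with RNA up in 34.5% and down in 20.6% of 1213, and a fallen one with RNA down in 67.4% of 674. The count of genes with a risen peak and risen RNA, 759, was 498 without 0 µM replicate 3 and 409 without 10 µM replicate 1. That with a risen peak and fallen RNA, 312, was 160 without 0 µM replicate 1, 149 without 0 µM replicate 3 and 127 without 10 µM replicate 1.

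The examples here are among the 10 genes per combination with the smallest RNA p and were picked from these after their values were seen; CENPA and PTTG1, given above, are examples of a risen peak with fallen RNA. Both rose at SPOCD1 (chr1:31798667-31799167), a gene of piRNA-guided methylation, with peaks of 5.82, 2.72 and 5.87 CPM against 32.5 and 29.6 CPM (log2 2.77, SE 0.22, adjusted p = 1.1e-12) and RNA of 0.344, 0.412 and 0.409 CPM against 16.1, 16.5 and 15.4 CPM. At the long noncoding RNA LUCAT1 (chr5:91314133-91314633) a peak change of 0.98, from 18.9, 25.4 and 24.6 CPM to 46.3 and 45.7 CPM, stood beside an RNA change of 5.32. Both fell at SERPINA10 (chr14:94292889-94293389), a liver protease inhibitor, with peaks of 72.5, 78.3 and 75.6 CPM against 22.0 and 30.7 CPM (log2 -1.54, SE 0.16, adjusted p = 1.8e-10) and an RNA change of -4.57. The peak fell and RNA rose at TRPV3 (chr17:3530085-3530585), a heat-gated channel of skin, with 26.2, 34.7 and 31.2 CPM against 8.05 and 6.52 CPM (log2 -2.06, SE 0.19, adjusted p = 2.9e-11) and RNA of 1.41, 1.83 and 1.64 CPM against 30.4, 41.8 and 40.4 CPM. At ACSL5 (chr10:112373894-112374394), a fatty acid activating enzyme, the peak fell from 37.3, 36.4 and 36.7 CPM to 13.7 and 19.8 CPM (log2 -1.17, SE 0.19, adjusted p = 1.6e-06) as RNA rose by 2.07 (adjusted p = 2.5e-05). In each of these genes the peak values of the 2 groups did not overlap.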

How the data were processed

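Deposited raw read counts per ATAC peak and RNA counts per gene were used; both are the authors' counts. The authors also deposited a score per peak, which was not used. DiffBind 3.12.0, DESeq2 1.42.1, HISAT2 2.2.1, HTSeq 2.0.4 and hg38 are named in the submitters' processing notes; the peak caller, the role of each tool and whether RNA counting used strand are not given in the sources used here. Of 63621 consensus peaks, 5249 without counts were left out. The deposited annotation has a single promoter class, 1000 bp before to 100 bp after a start.

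In R 4.3.3, edgeR 4.0.16 fitted all 8 ATAC libraries by dose (TMM scaling, filterByExpr, quasi-likelihood test, Benjamini-Hochberg adjustment), and all 9 RNA libraries likewise; called features had an adjusted p under 0.05. Alternatives were other scalings, filters, designs and thresholds, left-out libraries and DESeq2 1.42.0. In simulated data 100 of 58372 peaks were changed by log2 1 and 100 by log2 2. The ATAC fit recovered 79.0% and 98.0% of them. Far more peaks were called in the real data, so these rates need not hold there. With 4054573 to 7864321 counts per library, 1 CPM is about 4 to 8 reads. Of 63187 RNA gene IDs, 62666 matched a symbol. Read shares were compared by exact permutation, and the AP-1 share has a Wilson interval. Motif windows came from RefSeq (GRCh38.p14) and were searched on both strands.

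The members and the 32 gene lists were chosen with earlier results of these data known. Named peaks were those of SQOR and BCL2A1, the 15 largest changes each way with at least 5 CPM and no overlap between groups, the 5 largest at promoters and between genes, up to 4 promoter peaks per list by adjusted p, up to 10 genes per combination of peak and RNA direction by RNA p, and the 10 strongest peaks. HNF4A, CEBPA, SERPINA1, FOSL1, DNMT1 and the peaks shown with sequences were added for their roles, after their values were seen. Some items are not reported here.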

Additional observations from a re-analysis of the deposited data

How the results depend on the processing

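Of 17429 peaks that rose and 16134 that fell, 10842 and 9881 did so at least 2-fold. Leaving out single libraries gave 15171 to 17486 rises and 14230 to 16964 falls, and DESeq2 14566 and 14939. Deviations from the dose mean correlated at -0.232 to 0.147 between same-numbered libraries and at -0.279 to 0.279 between the others. With 2 or 3 libraries per dose this check cannot exclude a pairing. With a replicate block 16312 peaks rose and 15486 fell over all 8 libraries, and 13752 and 13989 over replicates 1 and 2.

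Counts of genes by peak and RNA moved more. Peak up with RNA up (759) became 364 with the replicate block on replicates 1 and 2, 476 with DESeq2, 498 at an adjusted p under 0.01 and 200 at 2-fold, and ran from 409 to 797 without single libraries. Peak up with RNA down (312) became 203 with library size only, 178 with TMM from promoter peaks, 198 in the fit of 0 and 10 µM alone, 102 with that replicate block, 144 with DESeq2, 149 at 0.01, 34 at 2-fold and 514 with the mean over all promoter peaks of a gene, and ran from 127 to 384 without single libraries. Peak down with RNA up (111) became 172 with TMM from promoter peaks, 69 with that replicate block, 64 at 0.01, 27 at 2-fold and 216 with the mean, and ran from 88 to 135. Peak down with RNA down (690) became 264 at 2-fold and ran from 633 to 721. The cause was not tested beyond the smaller number of calls under stricter rules and fewer libraries.

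The AP-1 share of 39.0% was 55.8% in windows of at most 8 CpG (chosen after seeing the data) and 36.7% to 42.5% without single libraries. The promoter read share difference ran from -1.76 to 2.03 percentage points, turning to -0.268 without 0 µM replicate 1 and to -1.76 without 10 µM replicate 1. With the loess fit the BCL2A1 peak at chr15:79948121-79948621 turned to -0.59, and 2873 of 17429 rises and 1206 of 16134 falls were lost. Under 4 CPM it ended 387 of 470 rises. The alternative of promoters within 1 kb was not run, since the deposited class is already that narrow.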

Other observations

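Lists not described above gave mixed counts, to be read against 20.5% risen and 14.9% fallen over all promoter peaks and 29.9% and 27.6% over all peaks. Genes of the ATF4 stress response had 11 of 38 promoter peaks risen and 3 fallen (28.9% and 7.89%), with 4 risen and 5 fallen without 10 µM replicate 1. Imprinted genes had 27 of 77 peaks risen and 19 fallen, a balance that rested on GRB10, an adaptor that restrains insulin signalling, with 17 of 21 peaks risen. Without GRB10 10 of 56 rose and 16 fell; its mean RNA went from 30.5 to 603 CPM. Silencers of retroelements and H3K9 methylation had 5 of 18 promoter peaks risen (27.8%) and 1 fallen. The rises numbered 2 without 10 µM replicate 1 and 3 without 0 µM replicate 2, where 2 peaks fell. Among them the promoter peak of DAXX, a chaperone of histone H3.3, rose from 3.15, 2.04 and 3.03 CPM to 17.4 and 22.0 CPM (log2 2.87), with no call in RNA. Polycomb subunits had 6 of 30 promoter peaks risen (20.0%) and 3 fallen, with 3 risen without 0 µM replicate 3 and 5 fallen without 10 µM replicate 1. PCGF2, of Polycomb complex 1, fell from 44.6, 39.8 and 34.7 CPM to 11.0 and 7.18 CPM (log2 -2.07). Tumour suppressors often methylated in liver cancer had 34 of 108 peaks risen and 37 fallen, and HOX genes 1 of 3 promoter peaks fallen (0 without 0 µM replicate 1 or 10 µM replicate 2). Keratin and junction genes had 32 of 89 peaks risen and 26 fallen. KRT8, a keratin of simple epithelia, supplied 16 of the 89, and without it 30 of 73 rose (41.1%) and 16 fell (21.9%). A promoter peak of KRT8 fell from 36.9, 37.9 and 40.3 CPM to 12.5 and 13.0 CPM (log2 -1.59), with no call in its RNA (log2 -0.24).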
